A study of Mus musculus with 6 samples.

Results

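The genes described here encode 10 surface molecules through which a tumor cell can restrain immune cells: Cd274, Pdcd1lg2, Cd276, Vsir, Tnfrsf14, Pvr, Nectin2, Ceacam1, Cd47 and Cd200. They were taken by symbol, and all 10 were among the 56734 gene symbols of the count table. Polyadenylated RNA was sequenced from 6 libraries of cultured B16-OVA cells, the mouse melanoma line B16 carrying the model antigen ovalbumin. There were 3 WT and 3 Ythdf2-KO libraries, with no further treatment given in the labels. Sample titles carry the codes gNC for WT and gY2 for Ythdf2-KO, so WT here need not mean unmodified parental cells. The labels name neither the number of clones behind a genotype nor whether replicates were separate cultures, so p-values measure the spread between these libraries. Ythdf2 encodes a cytoplasmic reader of N6-methyladenosine (m6A), a mark on mRNA, and the study asks what this reader does inside tumor cells for immune evasion.

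Checkpoint ligands on a tumor cell bind receptors on T and NK cells and dampen or, for some receptors, promote their activity. CD47 and CD200 act instead on macrophages and other myeloid cells; CD47 binds SIRP alpha and inhibits phagocytosis, which gave it the name don't-eat-me signal. Many of these genes respond to interferon gamma and to NF-kappaB, and several are made by leukocytes as well as by tumor cells.

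YTHDF2 is known to promote the decay of methylated mRNAs, and GGACT, in DNA letters, is among the sequences in which m6A is most often found. For the 5 members that changed and for Cd274, the match nearest the stop codon is shown, with 10 bases on each side and the match in capitals. The sequences come from 1 GENCODE M21 protein-coding transcript per gene, picked by its rank as principal isoform and then by length. Methylation itself was not measured.
Cd47: gggaagtgacGGACTgtaacttgga
Pvr: gttactaactGGACTacaaagagct
Nectin2: ccccccccaaGGACTcctaagacta
Vsir: ctcctctgttGGACTgactctatcc
Ceacam1: tggtgactttGGACTgacagacatc
Cd274: ccacagaacaGGACTcactgggtgc
The Cd47 match began 16 bases after the stop codon, the closest of the 10 members. Its transcript held 3 matches in 1316 bases, or 2.28 per kilobase, and 92.7% of the 13022 tested genes with such a transcript were at or below that density. Pvr, which fell almost as far as Cd47, stood at the other end of the members, with 1 match in 2905 bases, 0.344 per kilobase and a percentile of 11.7. That match lay in the coding part, 1259 bases before the stop codon. Vsir, Nectin2, Ceacam1 and Cd274 lay between them, at 0.825, 1.10, 1.04 and 0.828 per kilobase, against a median of 1.05 over tested genes. A match of these letters is not a methylated site, and 91.8% of tested genes held at least 1. Merged over all annotated transcripts, the exons span 6.276 kilobases for Cd47 and 6.122 for Pvr, far more than the transcripts used. Both densities therefore leave out much of the annotated exon sequence, where matches were not counted.

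The promoters of Ceacam1 and Tnfrsf14 are shown because they alone, among the member promoters searched, matched 1 of 4 motifs. Those of Cd47 and Cd274 are shown because these genes are the best known of the ligands. Each window runs from 250 bases before to 50 bases after the start in RefSeq's annotation of GRCm38.p6, a different build from the GRCm39 of the counts. Capitals mark the match.
Ceacam1, chr7:25477576-25477875, minus strand: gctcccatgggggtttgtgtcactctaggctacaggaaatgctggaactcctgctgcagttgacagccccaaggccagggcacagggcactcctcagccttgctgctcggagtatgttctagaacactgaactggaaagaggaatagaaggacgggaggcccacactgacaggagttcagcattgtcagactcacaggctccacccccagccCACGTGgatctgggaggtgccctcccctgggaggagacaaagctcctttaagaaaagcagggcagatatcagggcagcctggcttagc
Tnfrsf14, chr4:154928028-154928327, minus strand: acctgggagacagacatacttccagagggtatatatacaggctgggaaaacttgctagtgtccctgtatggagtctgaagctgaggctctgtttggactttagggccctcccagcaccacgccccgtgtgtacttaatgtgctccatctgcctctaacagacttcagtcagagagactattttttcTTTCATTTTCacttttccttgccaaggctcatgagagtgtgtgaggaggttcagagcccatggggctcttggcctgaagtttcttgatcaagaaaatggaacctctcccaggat
Cd47, chr16:49855404-49855703, plus strand: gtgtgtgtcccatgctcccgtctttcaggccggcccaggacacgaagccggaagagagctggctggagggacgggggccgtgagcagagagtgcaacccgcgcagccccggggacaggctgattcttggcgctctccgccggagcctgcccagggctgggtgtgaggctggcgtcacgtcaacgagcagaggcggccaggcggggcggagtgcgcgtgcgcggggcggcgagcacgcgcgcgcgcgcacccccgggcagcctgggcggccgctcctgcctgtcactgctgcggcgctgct
Cd274, chr19:29367188-29367487, plus strand: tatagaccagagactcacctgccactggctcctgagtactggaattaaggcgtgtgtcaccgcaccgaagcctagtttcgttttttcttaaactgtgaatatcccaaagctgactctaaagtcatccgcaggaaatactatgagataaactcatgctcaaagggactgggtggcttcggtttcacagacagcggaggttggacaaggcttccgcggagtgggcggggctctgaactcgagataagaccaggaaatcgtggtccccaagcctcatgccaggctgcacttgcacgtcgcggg
The motifs were TTCNNNGAA, the form of a gamma-interferon-activated site, GAAANNGAAA, the form of an interferon-stimulated response element, GGGANNTTCC, a form of the NF-kappaB site, and CACGTG, the E-box bound by MITF and MYC. Both strands were searched in 10 promoter windows of 9 members. Pvr had no window in the promoter set used and was not searched. Ceacam1 held CACGTG, starting 38 bases before the start, which 7.15% of all 32851 RefSeq promoter windows also held. Tnfrsf14 held GAAANNGAAA on the reverse strand, 64 bases before the start, as did 3.44% of windows. TTCNNNGAA and GGGANNTTCC, present in 8.30% and 1.47% of windows, were in none of the member windows, and the motifs shared no bases in these windows. The Cd47 window was 74.0% G and C and the Cd274 window 52.7%, against a median of 52.7% over all windows.

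The libraries held 55660473 to 69497273 counts. Genes with exactly 2 counts, 2499 to 2668 per library, outnumbered those with exactly 1, which were 1083 to 1171, and genes with 4 counts (1256 to 1342) outnumbered those with 3 (580 to 657). This excess of even counts is the pattern left when the reads of a pair are counted singly, so a fragment may stand behind 2 counts. Levels are given as CPM, that is, TMM-scaled counts per 1000000, in the order of replicates 1 to 3. Ythdf2 mRNA, the check of the labels, measured 123.7, 124.0 and 125.4 CPM for WT against 100.1, 100.5 and 103.8 CPM for Ythdf2-KO, a level that shows neither the edit nor the protein. Melanocyte markers were present in every library and higher in Ythdf2-KO, Tyr at 9.50 ± 0.273 and 72.7 ± 0.968 CPM (SD, n = 3) in WT and Ythdf2-KO. The summed level of 21 leukocyte markers was 89.1 to 89.7 CPM in WT and 41.8 to 44.9 CPM in Ythdf2-KO. S100a8 alone, with values given below, made up nearly all of this drop, so the sum does not describe the other markers. Only 8 of them had enough counts to test, of which 3 fell and 2 rose. That is 62.5% called, against 49.9% of all genes tested. S100a8 fell from 48.2 ± 1.34 to 2.31 ± 0.234 CPM, Cd68 from 20.4 ± 0.243 to 14.2 ± 1.28 CPM (SD, n = 3) and Adgre1 from 48 to 8 counts per genotype; these 3 were chosen for mention after their values were seen. Lyz2 and Laptm5 rose, from 9.80 ± 0.401 to 11.9 ± 1.17 CPM and from 8.84 ± 1.00 to 11.8 ± 0.444 CPM (SD, n = 3). Tyrobp and Itgam had 2 and 4 counts, all in WT replicate 3, and Cd3e had 2 counts in WT replicate 3 and 8 in Ythdf2-KO replicate 3. Ptprc, the pan-leukocyte marker, had 74 counts in Ythdf2-KO replicate 3 and at most 6 in any other library. The part of these cells in the members' values was not tested beyond the values without replicate 3.

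Of the 10 ligand genes, 8 had enough counts to be tested, and 4 fell and 1 rose in Ythdf2-KO at an adjusted p under 0.05 (edgeR's quasi-likelihood test, Benjamini-Hochberg over all genes tested). Among all 17718 genes tested the same rule called 49.9%, with 25.8% lower and 24.1% higher, against which the 62.5% called among the tested members is to be read. With a filter at a mean of 5 CPM, 3 of 5 tested members fell and 0 rose, while 66% of all genes tested were called. With upper-quartile in place of TMM scaling, 59.2% of all calls were higher rather than 48.3%, while the counts of members stayed at 4 lower and 1 higher. Vsir, Cd47, Pvr and Nectin2 fell and Ceacam1 rose, while PD-L1 (Cd274), B7-H3 (Cd276) and HVEM (Tnfrsf14) did not pass the test. The median log2 fold change was -0.13 over the 8 tested members and -0.0053 over all genes tested. Of the 8 tested members, the 5 called were also those in which every library of one genotype lay above every library of the other. That is again 62.5% of the tested members, against 55.9% of all genes tested. Calls and separation rest on the same values, so the separation is no independent support for the calls.

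**Figure D1:**
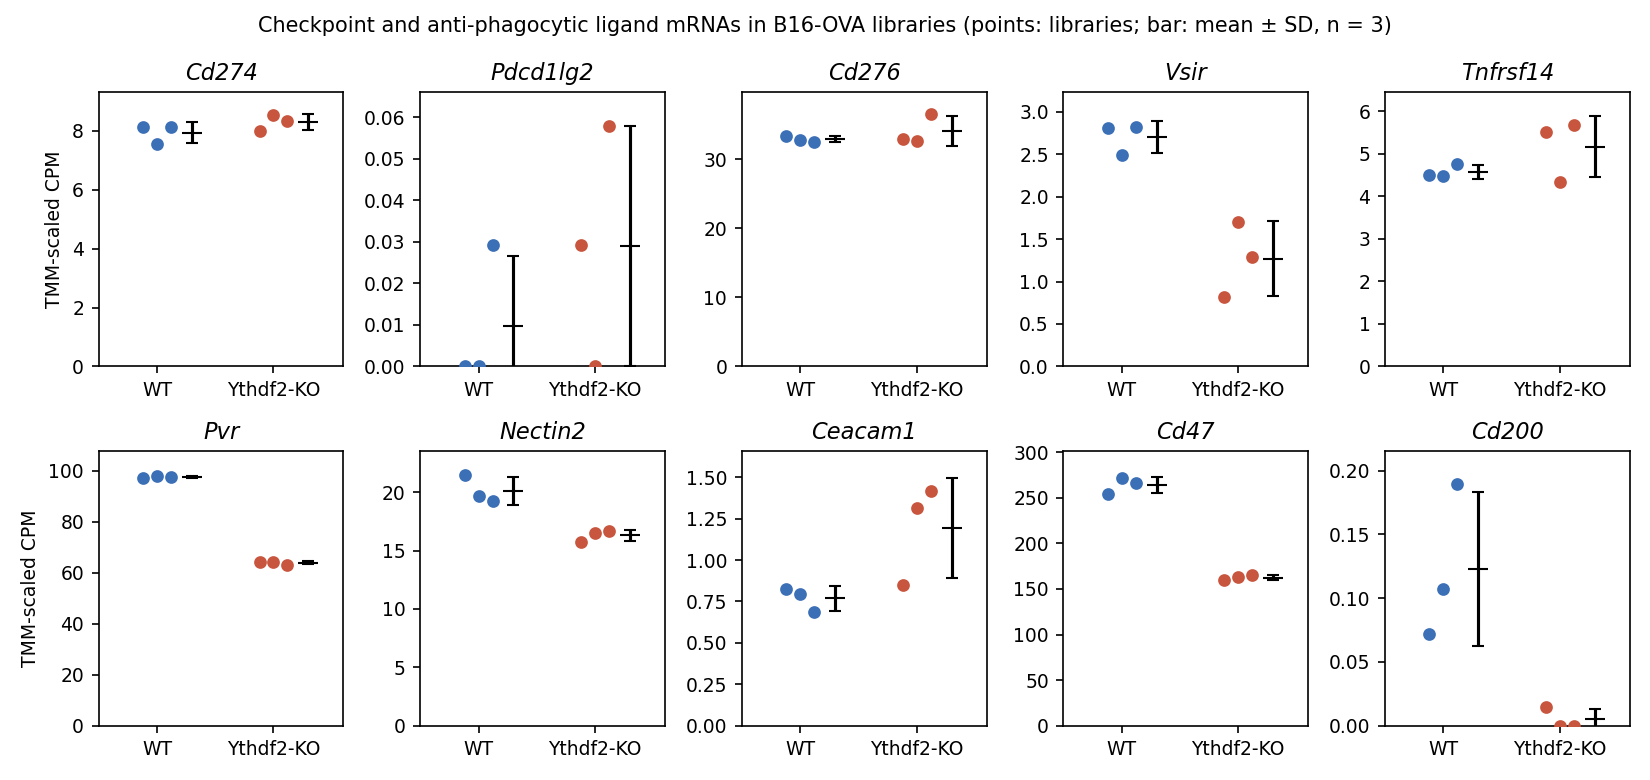
TMM-scaled CPM (vertical axis, from 0, scaled per panel) of each of the 10 genes in WT and Ythdf2-KO libraries; points are libraries and the bar is the mean ± SD of 3. Pvr and Cd47 show tight, separate groups, Vsir and Ceacam1 separate groups with a wide Ythdf2-KO spread, and Cd274 overlapping groups near 8 CPM.

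Cd274 encodes PD-L1, the ligand of the inhibitory T-cell receptor PD-1. WT libraries held 8.14, 7.54 and 8.14 CPM, and Ythdf2-KO libraries 7.99, 8.55 and 8.345 CPM. The groups overlapped: Ythdf2-KO replicate 1 lay below WT replicates 1 and 3. The estimated log2 fold change, 0.063 ± 0.083, did not pass (SE, n = 3 per group; edgeR adjusted p = 0.570), with a 95% confidence interval of -0.11 to 0.23. In linear terms that interval spans 0.930 to 1.17 times the WT level.

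Pdcd1lg2 encodes PD-L2, the other PD-1 ligand, and was barely detected. WT libraries had 0, 0 and 2 counts, against 2, 0 and 4 for Ythdf2-KO. The summed counts gave a ratio of Ythdf2-KO to WT of 2.85, with a 95% counting interval of 0.510 to 28.9. Taken as read pairs, 3 against 1, the interval widened to 0.229 to 150. No difference was detectable at this depth.

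Cd276 encodes B7-H3, a B7-family molecule that is widespread on solid tumors. It stood at 33.4, 32.8 and 32.5 CPM in WT and at 32.9, 32.7 and 36.5 CPM in Ythdf2-KO. The groups overlapped, with only Ythdf2-KO replicate 3 above all WT libraries. Its log2 fold change, 0.050 ± 0.045, did not pass (SE, n = 3 per group; edgeR adjusted p = 0.391), with an interval of -0.041 to 0.14. Its sign turned without Ythdf2-KO replicate 3, to -0.0052.

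Vsir encodes VISTA, a B7-related inhibitory molecule. It was at 2.81, 2.49 and 2.82 CPM in WT and fell to 0.820, 1.70 and 1.285 CPM in Ythdf2-KO. The highest Ythdf2-KO library lay below the lowest WT library, but the Ythdf2-KO libraries differed among themselves more than the WT ones, with an SD of 0.441 CPM against 0.187 CPM. Vsir fell 2.14-fold, a log2 fold change of -1.10 ± 0.19 (SE, n = 3 per group; edgeR adjusted p = 5.79e-06). This was the largest change among the tested members, exceeding in size 90.7% of all genes tested. Vsir lies inside the transcription unit of Cdh23 on the opposite strand, and whether counting used strand is not given in the sources used here. Cdh23 itself had 0 to 18 counts per library, against 56 to 193 for Vsir.

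Tnfrsf14 encodes HVEM, which on a tumor cell engages the inhibitory receptors BTLA and CD160 on lymphocytes. It was at 4.50, 4.47 and 4.77 CPM in WT and at 5.50, 4.34 and 5.67 CPM in Ythdf2-KO. Ythdf2-KO replicates 1 and 3 lay above all WT libraries and replicate 2 below them. The log2 fold change of 0.18 ± 0.11 did not pass (SE, n = 3 per group; edgeR adjusted p = 0.1998; interval -0.050 to 0.40). Without Ythdf2-KO replicate 2 it was 0.29 and passed (edgeR adjusted p = 0.0486).

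Pvr encodes CD155, which binds the activating receptor DNAM-1 (Cd226) and the inhibitory receptors TIGIT and CD96. It stood at 97.2, 97.8 and 97.4 CPM in WT and at 64.15, 64.05 and 63.1 CPM in Ythdf2-KO. The 2 groups were far apart relative to their spread, with SDs of 0.347 and 0.593 CPM. Pvr fell 1.53-fold, a log2 fold change of -0.61 ± 0.029 (SE, n = 3 per group; edgeR adjusted p = 1.81e-22), with an interval of -0.67 to -0.55.

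Nectin2 encodes CD112, a weaker ligand of DNAM-1 that also binds PVRIG and TIGIT. It was at 21.49, 19.7 and 19.25 CPM in WT and at 15.8, 16.55 and 16.65 CPM in Ythdf2-KO. The groups did not overlap. Nectin2 fell 1.23-fold, a log2 fold change of -0.30 ± 0.059 (SE, n = 3 per group; edgeR adjusted p = 2.97e-05). Pvr and Nectin2 thus fell together, and their intervals, -0.67 to -0.55 and -0.42 to -0.18, did not meet; the difference between the genes was not tested.

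Ceacam1 encodes an adhesion molecule that inhibits T and NK cells when it meets CEACAM1 on them. It was at 0.828, 0.794 and 0.686 CPM in WT and at 0.849, 1.31 and 1.415 CPM in Ythdf2-KO. The groups did not overlap, but Ythdf2-KO replicate 1 lay close to WT replicate 1, at 58 and 46 counts. Ceacam1 rose 1.55-fold, a log2 fold change of 0.63 ± 0.25 (SE, n = 3 per group; edgeR adjusted p = 0.0290; interval 0.14 to 1.13). The call was lost without WT replicate 3, Ythdf2-KO replicate 2 or Ythdf2-KO replicate 3 (edgeR adjusted p = 0.0921, 0.107 and 0.168), on leaving out replicate 3 in both genotypes (0.310) and with limma-voom (0.0595). Ceacam2, a close paralog that may share reads, had 7 to 15 counts per library and did not pass (edgeR adjusted p = 0.761).

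Cd47 encodes the don't-eat-me signal itself and had the most RNA of the genes. WT libraries held 254, 272 and 267 CPM, against 159, 163 and 165 CPM for Ythdf2-KO. The lowest WT library was far above the highest Ythdf2-KO library. Cd47 fell 1.63-fold, a log2 fold change of -0.70 ± 0.024 (SE, n = 3 per group; edgeR adjusted p = 7.61e-28), larger in size than 83.8% of all genes tested. Its interval, -0.75 to -0.65, was the narrowest among the members.

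Cd200 encodes a ligand that restrains myeloid cells through CD200R1. WT libraries had 4, 7 and 13 counts, against 1, 0 and 0 for Ythdf2-KO, too few for the filter used before testing. The ratio of WT to Ythdf2-KO was 25.2, with a 95% counting interval of 4.12 to 1038. Taken as read pairs, 12 against 1, the ratio was 12.6, with an interval of 1.87 to 539. With no filter on low counts Cd200 was tested and passed (edgeR adjusted p = 0.00657), at a WT level of only 0.123 ± 0.0605 CPM (SD, n = 3).

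**Figure D2:**
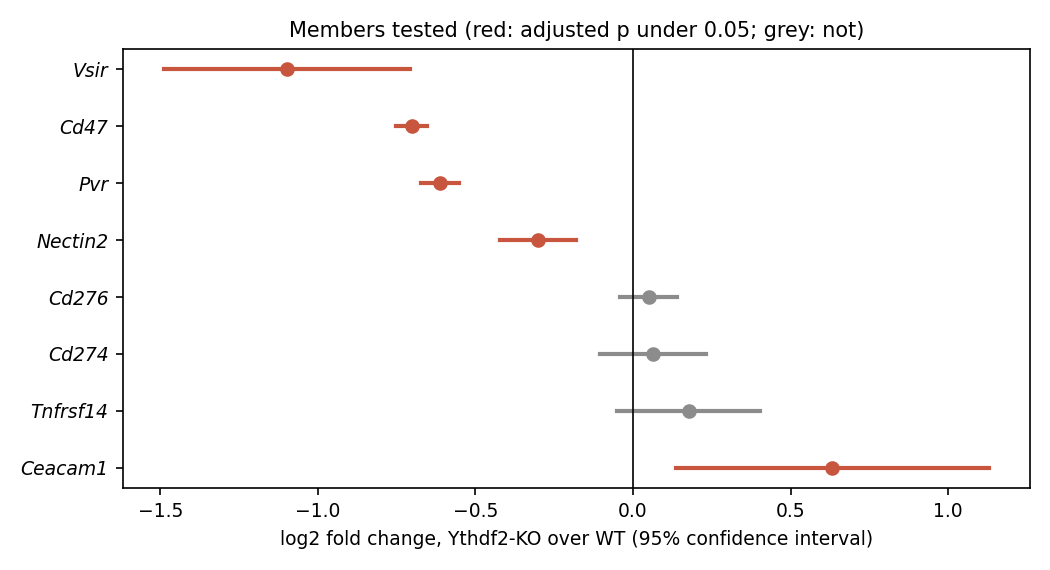
Log2 fold change of Ythdf2-KO over WT (horizontal axis) with its 95% confidence interval for the 8 members tested. Vsir, Cd47, Pvr and Nectin2 lie left of 0 and Ceacam1 right of it, while the intervals of Cd276, Cd274 and Tnfrsf14 cross 0.

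Levels were compared between genes per kilobase of exon, which reduces the effect of length on counts. The length used was that of the merged exons of all annotated transcripts, which can exceed that of the transcripts expressed. Close ranks may depend on this choice, which was not tested. In WT the order was Cd47 at 42.1 ± 1.42 CPM per kilobase, Pvr at 15.9 ± 0.0566, Cd276 at 8.996 ± 0.123, Nectin2 at 5.76 ± 0.340, Tnfrsf14 at 3.19 ± 0.115 and Cd274 at 2.19 ± 0.0949 (SD, n = 3). Vsir, Ceacam1, Cd200 and Pdcd1lg2 followed at 0.539, 0.133, 0.0370 and 0.00496 CPM per kilobase. No neighbours in this order overlapped between WT libraries. PD-L1 mRNA was thus sixth of the 10, under the ligands of the DNAM-1 and TIGIT axis and of SIRP alpha. In Ythdf2-KO the order of the first 8 was the same, but the gap between Pvr, at 10.4 CPM per kilobase, and Cd276, at 9.30, narrowed from a ratio of 1.77 to 1.12. Vsir and Ceacam1, which lay 4.07-fold apart in WT, overlapped in Ythdf2-KO at 0.253 and 0.205 CPM per kilobase. Pdcd1lg2 and Cd200 also overlapped there, both with libraries at 0.

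**Figure D3:**
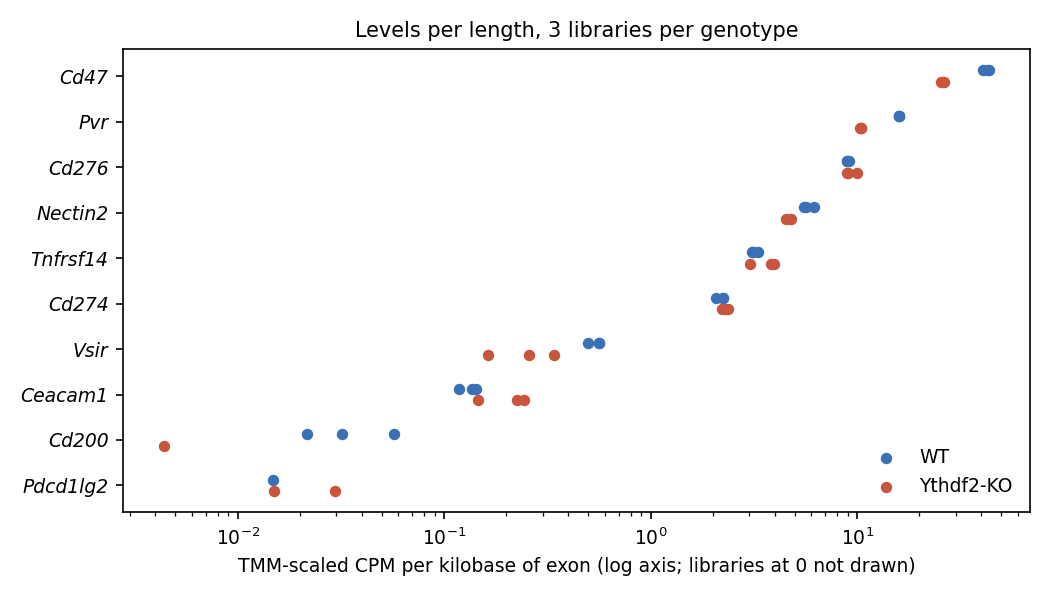
TMM-scaled CPM per kilobase of exon (horizontal log axis) for each gene in 3 WT and 3 Ythdf2-KO libraries; libraries at 0 are not drawn. The genes span from Cd47 at 42.1 to Pdcd1lg2 at 0.00496 CPM per kilobase in WT, and Vsir and Ceacam1 meet in Ythdf2-KO.

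Partner genes were taken as 7 lists of receptors, related ligands, regulators and processing enzymes; of 132 found in the table, 99 were tested, 49 fell and 18 rose. With upper-quartile scaling 41 fell and 23 rose. Over all genes tested 49.9% were called, with 25.8% lower and 24.1% higher. That share rose with level, to 66% of the 10507 genes kept by a filter at a mean of 5 CPM. The 67.7% called, and the shares called in each list given next, are to be read against both values. Many partner genes were well expressed, and 67.7% lies near 66%. The median log2 fold change of the 99 was -0.062, against -0.0053 over all genes tested.

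Among 9 tested genes of receptors and other binding partners of the ligands, 3 rose and 2 fell (55.6% called), and without Ythdf2-KO replicate 1 only 1 rose. Their log2 fold changes had a median of 0.37, which rests on genes of few counts: it was 0.041 over the 3 genes left by a filter at a mean of 5 CPM and 0.96 over the 18 tested with no filter. Sirpa, which encodes the CD47 receptor SIRP alpha, rose 5.19-fold, from 5.89 ± 0.606 to 30.4 ± 0.990 CPM (SD, n = 3; edgeR adjusted p = 2.93e-31). Its ligand gene fell in the same libraries. Igsf11, which encodes a ligand of VISTA, rose 1.34-fold from 2.77 ± 0.342 CPM, a call lost without WT replicate 1 (edgeR adjusted p = 0.0503) or Ythdf2-KO replicate 1 (edgeR adjusted p = 0.0881). Rgmb, which encodes a partner of PD-L2, fell 1.14-fold from 81.4 ± 0.546 CPM. Tigit rose from 0.592 to 1.04 CPM, a call lost without Ythdf2-KO replicate 1 (edgeR adjusted p = 0.0540), and Pdcd1, the gene of PD-1, fell from 54 to 8 counts per genotype. Pvrig did not pass (edgeR adjusted p = 0.105), and Cd226, Cd200r1 and Btla had at most 9 counts in any library and were not tested.

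Related ligands of the B7 and TNF superfamilies, grouped with CD40, FGL1, galectin 9 and HMGB1, came next. Of 8 tested, 7 fell and 0 rose, which is 87.5% lower against 25.8% of all genes tested, and the log2 fold changes had a median of -0.58; with upper-quartile scaling 6 fell. Cd40, which encodes a costimulatory receptor, went from 4.21 ± 0.237 to 0.978 ± 0.220 CPM, a 4.31-fold fall (SD, n = 3; edgeR adjusted p = 8.61e-15). Icosl, which encodes the ICOS ligand, fell 4.45-fold from 3.76 ± 0.433 CPM. Tnfsf9, which encodes the costimulatory 4-1BB ligand, fell 1.66-fold from 23.4 ± 1.30 to 14.1 ± 0.471 CPM. Cd80 was at 0.0593 and 0.176 CPM in WT and Ythdf2-KO and did not pass (edgeR adjusted p = 0.0679), though it did without WT replicate 3 (edgeR adjusted p = 0.0263), on leaving out replicate 3 in both genotypes (0.0455) and with limma-voom (0.0243). Cd86 had 1 count in all.

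Nectins, nectin-like molecules and their adaptor, taken with relatives of Ceacam1, went both ways, with 3 of 9 tested higher and 3 lower (66.7% called). Cadm1, which encodes a nectin-like ligand of the lymphocyte receptor CRTAM, rose 5.74-fold from 3.02 ± 0.633 to 17.4 ± 0.274 CPM (SD, n = 3; edgeR adjusted p = 4.48e-24). Cadm4 rose 2.76-fold to 6.26 ± 0.0600 CPM and Afdn, which encodes the adaptor afadin that binds nectin tails, 1.197-fold to 209 ± 1.57 CPM. Nectin1 did not pass, with a log2 fold change of 0.0003 that turned negative when single libraries were left out, the lowest being -0.069. Nectin3 fell 1.09-fold, but not without WT replicate 3 (edgeR adjusted p = 0.0686), on leaving out replicate 3 in both genotypes (0.171) or under upper-quartile scaling (0.151). The other two that fell were of low level and were picked for mention after their values were seen: Cadm2 had 34, 29 and 29 counts in WT against 4, 1 and 2 for Ythdf2-KO, and Ceacam19 had 36, 29 and 24 against 2, 4 and 8. Of 5 tested ligands of NK receptors, 3 fell and 0 rose (60% called, against 49.9% of all genes tested). Raet1e fell by 2.04-fold, Raet1d by 1.55-fold and Ulbp1 by 1.12-fold. The Raet1 genes are close copies, and reads may be split among them. With upper-quartile scaling, or without replicate 3 of both genotypes, 1 of these 5 genes was higher.

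Among 38 genes known to regulate PD-L1, 17 fell and 6 rose (60.5% called, against 49.9% of all genes tested). All 38 also passed the filter at a mean of 5 CPM, where 15 fell and 8 rose. Of all genes tested there, 66% were called, so the list did not exceed genes of like level. The median of the 38 log2 fold changes was -0.053. With upper-quartile scaling 14 fell and 10 rose, and the median was 0.0011. Genes of the interferon gamma pathway and of NF-kappaB were among those that fell, while Cd274 was not called. Ifngr1, which encodes the ligand-binding receptor chain, fell 1.46-fold from 54.3 ± 0.962 CPM (SD, n = 3; edgeR adjusted p = 7.17e-17). Irf1, which encodes the factor that induces Cd274, fell 1.41-fold from 75.7 ± 1.31 to 53.5 ± 0.720 CPM. Nfkb1, which encodes an NF-kappaB subunit, fell 1.72-fold from 315 ± 1.19 to 184 ± 3.76 CPM. Cmtm6, which encodes a protein that protects PD-L1 from degradation, was at 37.6 ± 1.24 and 36.2 ± 2.09 CPM in WT and Ythdf2-KO and did not pass (edgeR adjusted p = 0.339), though it was lower on leaving out replicate 3 in both genotypes (edgeR adjusted p = 0.0333).

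Genes around CD47 and other signals to phagocytes were also divided, with 6 of 21 tested higher and 8 lower (66.7% called); with upper-quartile scaling 5 were lower. Thbs1, which encodes the secreted CD47 ligand thrombospondin 1, rose 7.71-fold from 22.0 ± 1.76 to 169 ± 1.41 CPM (SD, n = 3; edgeR adjusted p = 1.70e-38). Thbs2, its relative, fell 1.92-fold from 627 ± 9.12 CPM. Bnip3, which encodes a mitochondrial protein that binds CD47, fell 2.31-fold from 178 ± 0.608 to 77.2 ± 2.77 CPM. Qpctl, which encodes the enzyme that modifies CD47 for SIRP alpha binding, was at 17.7 ± 0.625 and 16.1 ± 0.933 CPM and did not pass (edgeR adjusted p = 0.0710), though it did without Ythdf2-KO replicate 1 (edgeR adjusted p = 0.0282). Cd24a, another don't-eat-me signal, had 11 counts in all and was not tested.

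All 9 tested genes of proteases that shed or process surface ligands, or induce such proteases, fell, also under each scaling tried, against 25.8% lower among all genes tested; their median log2 fold change was -0.50. Mmp2 and Mmp9, which encode gelatinases, each fell strongly, Mmp9 12.8-fold from 63.8 ± 1.91 to 4.96 ± 0.385 CPM (SD, n = 3; edgeR adjusted p = 1.99e-42). Furin, which encodes a proprotein convertase, fell 1.95-fold from 744 ± 12.8 to 382 ± 8.998 CPM.

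**Figure D4:**
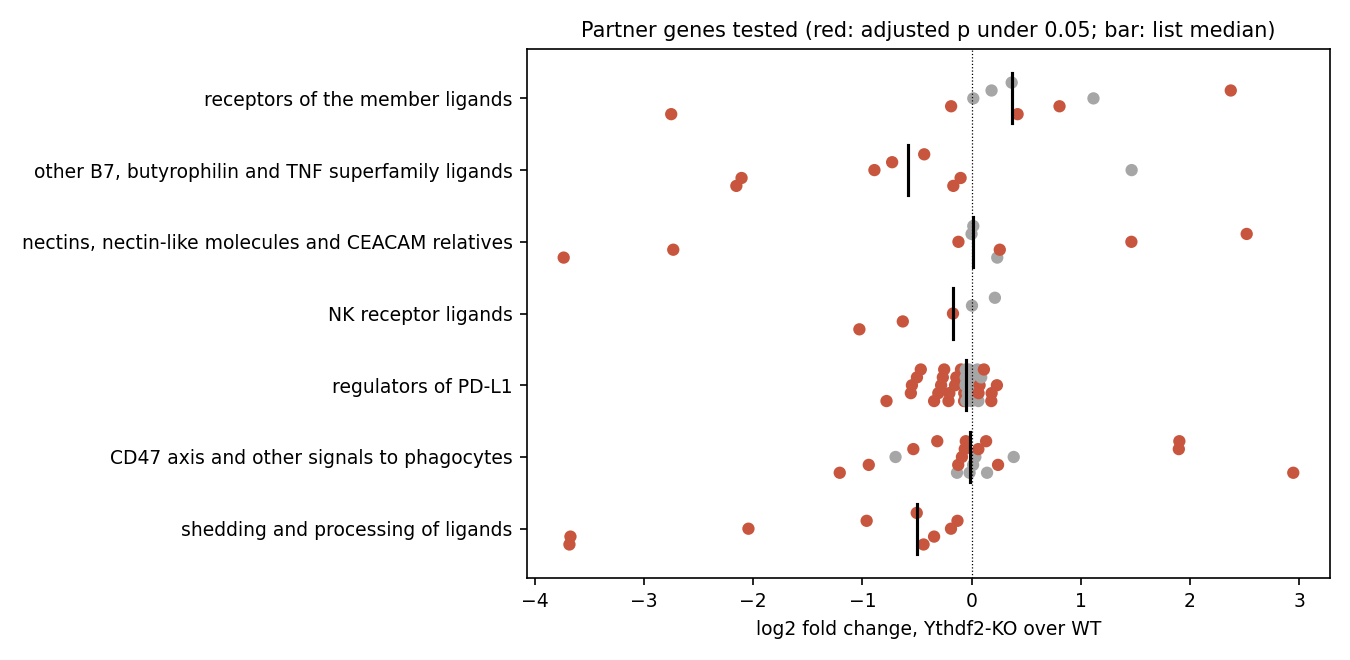
Log2 fold change of Ythdf2-KO over WT (horizontal axis) for the tested genes of each partner list; points are genes, red where the adjusted p was under 0.05, and bars are list medians. The protease list lies wholly left of 0, and Sirpa, Cadm1 and Thbs1 are the rightmost points of their lists, above 2.

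The partner genes closest to each of the 3 called members with the largest change and a mean of at least 1 CPM were found by the root-mean-square distance of log2 CPM profiles over the 6 libraries, each centred on its WT mean, among 99 genes. Vsir was closest to Bnip3 and Furin, at distances of 0.29 and 0.33. Cd47 was closest to Nfkb1 and Tnfsf9, at 0.064 and 0.077. Pvr was closest to Ifngr1 and to B2m, the gene of the MHC class I light chain, at 0.053 and 0.058. These distances describe profiles dominated by the genotype difference.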

How the data were processed

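Per the labels' protocols, RNA was extracted with TRIzol, enriched for poly(A), made into KAPA RNA HyperPrep libraries and sequenced from both ends. The submitters' processing notes name fastp 0.23.2, HISAT2 2.2.1 and featureCounts 2.0.6, with the build GRCm39; their settings are not given in the sources used. The deposited values are raw whole-number counts for each gene symbol. Counts were fitted in R 4.3.3 with edgeR 4.0.16 (filterByExpr, TMM factors of 0.981 to 1.02, robust quasi-likelihood test, adjusted p under 0.05). Standard errors were derived from the F statistic, and 95% intervals use the test's degrees of freedom. A count of 3 equalled 0.0433 to 0.0540 CPM; counting intervals are exact binomial and cover counting error only. Exon lengths and transcripts came from GENCODE M21 and promoters from RefSeq, both on GRCm38, joined by symbol. The members, lists and tests were chosen with earlier results of these data known. Named genes were the members, Ythdf2, genes that could share their reads, a set of partners named whatever their result, in each list the 3 called genes lowest in adjusted p with a mean of at least 1 CPM, the likeness rule's genes and defining cell markers. The fit was tested on simulated data in which a small share of genes changed, up or down at random. It therefore cannot show how the scaling behaves under changes as wide as those in these data. Within a genotype, replicates gave chi-square values of 4.22 to 14.6 per degree of freedom (genes with at least 20 counts in the pair), above sampling noise. Alternatives were other scalings (RLE, upper-quartile, TMM without abundant genes), filters, the replicate block, DESeq2 1.42.0, limma-voom 3.58.1, leaving out libraries and an adjusted p under 0.01. Figures were drawn with matplotlib 3.10.9. Some genes covered by the naming rule are not reported here.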

Additional observations from a re-analysis of the deposited data

How the results depend on the processing

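The falls of Vsir, Cd47, Pvr and Nectin2 kept their direction and passed under every alternative that tested them; a filter at a mean of 5 CPM tested neither Vsir nor Ceacam1 nor Tnfrsf14. Leaving out each library gave log2 fold changes of -1.36 to -0.86 for Vsir, -0.72 to -0.67 for Cd47, -0.62 to -0.60 for Pvr and -0.33 to -0.25 for Nectin2. Members called higher went from 1 to 0 with the filter at 5 CPM, limma-voom, an adjusted p under 0.01 and without replicate 3 of both genotypes, and lay between 0 and 1 when libraries were left out singly; the cause was not tested. Ceacam1 had a log2 fold change of 0.60 with limma-voom, 0.41 without replicate 3 of both genotypes and 0.49 to 0.83 without single libraries, and Tnfrsf14 of 0.10 to 0.29. Cd276 ranged from -0.0052 to 0.078 without single libraries and was -0.015 without replicate 3 of both genotypes, which also gave -0.10 for Nectin1 and -0.12 for Ceacam2. Nectin1 ranged from -0.069 to 0.054 without single libraries, and Cmtm6 was 0.0009 with upper-quartile scaling. With the replicate block, members called were again 4 lower and 1 higher (Ceacam1, edgeR adjusted p = 0.0448), and 8541 genes were called rather than 8839. Same-numbered replicates did not deviate together (correlations of 0.058, -0.066 and -0.094), so no shared effect of the replicate number was seen. With 3 libraries per genotype, these values cannot show whether the numbers stand for paired cultures. With no filter the share of genes called was 26.6% of 32506, and with the filter at a mean of 5 CPM it was 66% of 10507. Depth limits Pdcd1lg2, Cd200 and Ceacam1, whose counts per library were at most 98.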
